A study of Mus musculus with 2 samples.

Results

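The miR-26 family of the mouse has 3 genes, Mir26a-1, Mir26a-2 and Mir26b, and each lies inside a gene for a small C-terminal domain phosphatase of the Ctdsp group. The members were taken by symbol in the gene annotation, and all 3 were among the 1973 miRNA genes in the deposited tables. RNA below 30 nt was sequenced from whole stomachs of newborn mice (postnatal day 0, strain B6NCrl), 1 library from each of 2 pups of the same dam, with the sex not collected and no treatment or altered allele named. Both libraries form 1 group, so the data give the level of each gene and how far these littermates differ, with no contrast between conditions. In whole tissue, more cells of a type and more RNA per cell cannot be told apart.

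A miRNA is cut from a hairpin in a longer transcript, first by Drosha in the nucleus and then by Dicer in the cytoplasm, which leaves a 5p and a 3p arm. The arm that enters Argonaute finds its mRNA targets mainly through its seed, bases 2 to 8, and lowers their stability and translation. For the miR-26 genes the 5p arm is the main product. It is known as a brake on growth that targets mRNAs such as that of the histone methyltransferase Ezh2, and the host phosphatases are known to act on the retinoblastoma protein, so that gene and host have been described as working together against entry into S phase.

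Because the reads are assigned by sequence, the mature arms come first. They are shown 5′ to 3′ from RefSeq (GRCm38.p6), with the seed in capitals.

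miR-26a-5p, from both Mir26a-1 and Mir26a-2: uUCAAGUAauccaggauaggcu
miR-26b-5p, from Mir26b: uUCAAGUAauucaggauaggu
miR-26a-1-3p, from Mir26a-1: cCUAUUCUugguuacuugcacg
miR-26a-2-3p, from Mir26a-2: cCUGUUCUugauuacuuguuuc
miR-26b-3p, from Mir26b: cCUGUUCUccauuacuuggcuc

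All 5p arms carry the same seed, UCAAGUA, and among 1679 mature names in the RefSeq table only miR-26a-5p and miR-26b-5p have it. The 5p arms of Mir26a-1 and Mir26a-2 are identical over 22 bases. Against them the 21-base arm of Mir26b differs by C11U and C21U, counted from 1 at the 5′ end with the base of miR-26a-5p first. The 3p arms are more divergent, with 6 differences between Mir26a-1 and Mir26a-2, 8 between Mir26a-1 and Mir26b, and 4 between Mir26a-2 and Mir26b, each over 22 bases. The 3p seeds of Mir26a-2 and Mir26b are the same, CUGUUCU, whereas Mir26a-1 has CUAUUCU.

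The hairpins show how far this identity reaches. The arms are in capitals, and the sequences are those of RefSeq, identical in position and letters to the GENCODE M21 entries.

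Mir26a-1: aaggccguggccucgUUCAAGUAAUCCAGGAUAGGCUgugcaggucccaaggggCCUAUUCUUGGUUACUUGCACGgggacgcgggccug
Mir26a-2: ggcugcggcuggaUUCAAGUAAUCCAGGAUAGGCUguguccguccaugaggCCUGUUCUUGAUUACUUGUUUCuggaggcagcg
Mir26b: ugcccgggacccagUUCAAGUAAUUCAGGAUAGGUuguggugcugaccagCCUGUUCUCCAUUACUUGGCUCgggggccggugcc

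The longest stretch common to Mir26a-1 and Mir26a-2 has 25 nt. It begins with the first base of the 5p arm and runs 3 bases past its end, so a full 5p read without a mismatch matches both genes. Mir26b has at most 11 nt in common with Mir26a-1 and 10 nt with Mir26a-2. None of the 3p arms, nor miR-26b-5p, occurs in any other hairpin searched, so an intact read of these arms matches a single hairpin of the table. Folded with RNAfold, the hairpins had minimum free energies of -49.4, -44.5 and -43.5 kcal/mol for Mir26a-1, Mir26a-2 and Mir26b, all lower than the median of -32.0 kcal/mol over 1005 hairpins, whose median length is 79 nt against 90, 84 and 85 nt here.

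The hairpins sit at matching places in genes of very different size (coordinates on GRCm38, which mm10 names). Mir26b (ENSMUSG00000065468.1, chr1:74394310-74394394, plus strand) lies in intron 4 of 6 of Ctdsp1, 2.80 kb from the transcript start in a gene of 5.78 kb. Mir26a-2 (ENSMUSG00000065430.1, chr10:126995530-126995613, plus strand) lies in intron 5 of 7 of Ctdsp2, 16.8 kb from the start in a gene of 21.3 kb. Mir26a-1 (ENSMUSG00000065513.1, chr9:119031796-119031885, plus strand) lies in intron 5 of 7 of Ctdspl, 105 kb from the start in a gene of 118 kb. Each hairpin is on the strand of its host. For Mir26a-2 the annotation adds that exon 1 of 2 shorter transcripts starts at 126995613, the last base of the hairpin, an overlap of 1 nt. The host mRNAs were not measured.

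**Figure D1:**
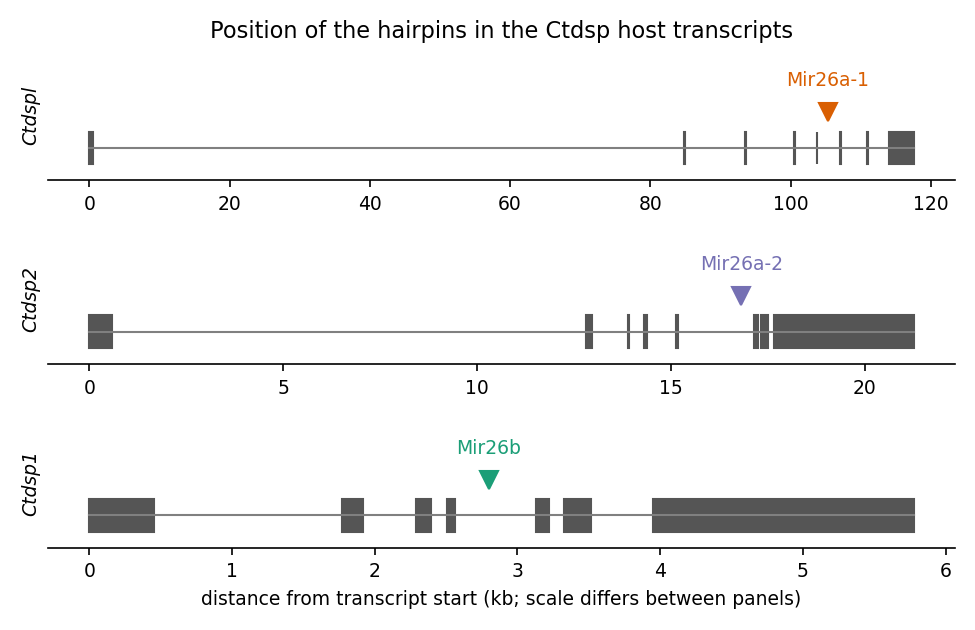
Host transcripts of the miR-26 genes, with exons as boxes, introns as lines and the hairpin as a triangle, against the distance from the transcript start in kb. Each hairpin lies in an intron past the start region, at 105 kb in Ctdspl, 16.8 kb in Ctdsp2 and 2.80 kb in Ctdsp1, and the scale differs between panels.

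The libraries held 4463355 own-strand counts in pup 1 and 3454655 in pup 2, and 305 genes reached the detection minimum of 10 counts in each. Levels are own-strand counts per 1000000 such counts (CPM). A count of 0 allows up to 3 counts, or 0.672 and 0.868 CPM in the pups, and intervals and this floor cover counting error only, since copies made by PCR were not marked and may repeat a molecule. Among markers of the cells a stomach holds, the smooth muscle gene Mir143 stood at 241858 ± 12311 CPM (SD, n = 2) and Mir203, a gene of squamous epithelium, at 95385 ± 1150 CPM. The liver gene Mir122 stood at 230 ± 35.2 CPM and the skeletal muscle gene Mir206 at 181 ± 118 CPM, both above the median detected gene (166 CPM). Mir206 differed between pups, with a log2 ratio of pup 1 over pup 2 of -1.34, and whether the tissue content of the stomachs differed was not tested. Hairpin lengths differ by a few bases only, and a read spans a mature arm and not the hairpin, so levels were not divided by length.

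The newborn stomach held large amounts of Mir26b and few reads assigned to either miR-26a gene. Mir26b had 128834 counts in pup 1 and 97457 in pup 2. This is 28865 CPM (exact 95% interval 28710 to 29021) and 28210 CPM (28036 to 28385), with a mean of 28538 ± 463 CPM (SD, n = 2). It was the gene of rank 9 of all 1973 and held 2.85% ± 0.0463 of own-strand counts. Mir26a-2 had 191 and 143 counts, or 42.8 CPM (36.9 to 49.3) in pup 1 and 41.4 CPM (34.9 to 48.8) in pup 2, a mean of 42.1 ± 0.990 CPM at rank 208. Mir26a-1 had 48 and 40 counts, or 10.8 CPM (7.93 to 14.3) and 11.6 CPM (8.27 to 15.8), a mean of 11.2 ± 0.583 CPM at rank 257. All 3 genes were detected, Mir26b far above the median detected gene (166 CPM) and both miR-26a genes below it. None had a count on the opposite strand in either pup, as was the case for 286 of the 305 detected genes.

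**Figure D2:**
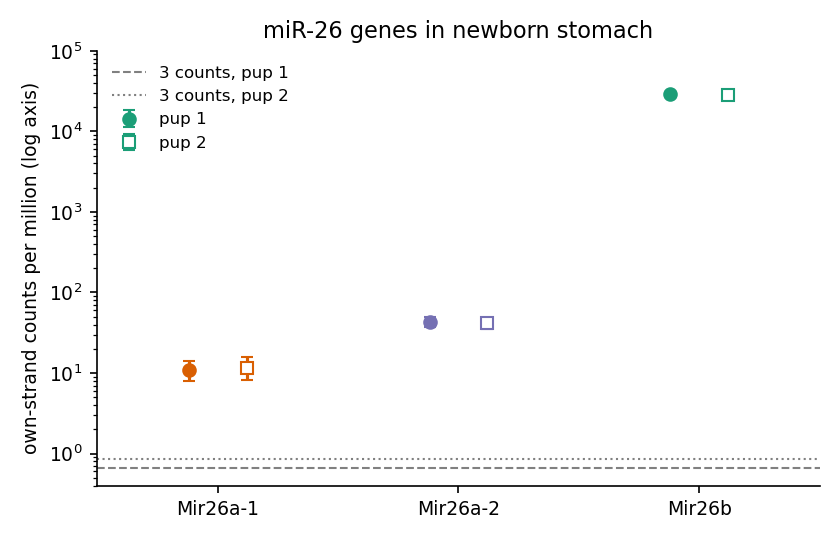
Own-strand CPM (log axis) of the miR-26 genes in pup 1 (filled circles) and pup 2 (open squares), with exact 95% binomial intervals and dashed and dotted lines at the level of 3 counts. Mir26b lies at 28865 and 28210, Mir26a-2 at 42.8 and 41.4, and Mir26a-1 at 10.8 and 11.6, with no overlap between genes.

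The order Mir26b, Mir26a-2, Mir26a-1 was the same in both pups. Ratios within a library need no library size. Mir26b exceeded Mir26a-2 by 675-fold in pup 1 (exact 95% interval 585 to 782) and 682-fold in pup 2 (578 to 809), which is 9.41 ± 0.01 on the log2 scale (SD, n = 2). It exceeded Mir26a-1 by 2684-fold (2024 to 3640) and 2436-fold (1789 to 3411), or 11.32 ± 0.10. Mir26a-2 exceeded Mir26a-1 by 3.98-fold (2.89 to 5.58) and 3.58-fold (2.50 to 5.21), or 1.92 ± 0.11. Each ratio was larger than its spread between pups, and no interval reached 1. With 2 libraries an exact permutation test cannot give a p under 0.5, so levels of different genes are set against the SD and the counting intervals.

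Mir26b therefore made up 99.81% of the counts assigned to the family in each pup, with 0.148% and 0.147% from Mir26a-2 and 0.0372% and 0.0410% from Mir26a-1. These shares describe assigned reads and not the mature miRNAs, because reads of miR-26a-5p that match both genes are not divided between them. The tables keep reads that mapped to several places in a row of their own, 1873722 in pup 1 and 1425289 in pup 2. That row is 14.5 and 14.6 times the count of Mir26b, and the tables do not say which miRNAs it holds. The level of miR-26a-5p can thus not be read from the counts of Mir26a-1 and Mir26a-2, and the part of shared reads in their low counts was not tested. The counts also do not tell the 5p from the 3p arm.

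Genes with the same limit give the setting. Of the 305 detected genes 282 had a mature arm in the RefSeq table, and 40 of these had an arm identical to an arm of another gene. The detected genes with such an arm had a median of 41.1 CPM and none was above 2434 CPM, whereas the 242 without one had a median of 184 CPM and reached 95385 CPM. Detected genes with no arm in that table, among them Mir143 at 241858 CPM, are in neither group. Sharing was judged within that table only, so a gene for which it lacks an arm can be misplaced. Mirlet7a-1 fell in the first group and Mirlet7a-2 in the second. Mir26a-2 lay close to the median of the first group, with 19 of its 40 genes above it. Mir26a-1 was among the lower ones, with 34 above it. In the second group 7 of 242 genes were above Mir26b. With sharing judged instead by a stretch of at least 20 nt common to the hairpins, 70 detected genes counted as sharing, with a median of 83.2 CPM and a highest level of 25370 CPM, and 41 of them were above Mir26a-2 and 56 above Mir26a-1. Genes are not replicates, so this is a description with no test.

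**Figure D3:**
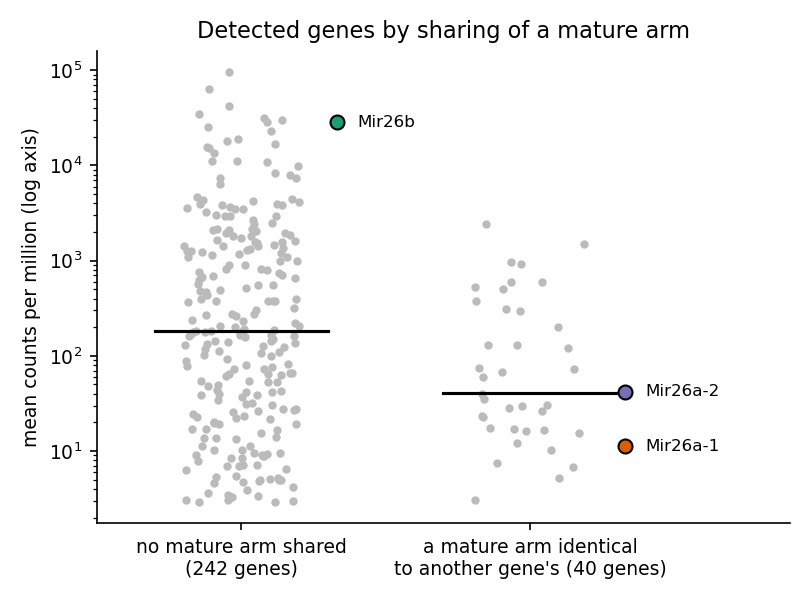
Mean CPM (log axis) of detected genes without (left, 242 genes) and with (right, 40 genes) a mature arm identical to that of another gene, as points with a line at the median (184 and 41.1). Mir26b lies near the top of the left group, while Mir26a-2 at 42.1 and Mir26a-1 at 11.2 lie at and below the median of the right group. Detected genes with no mature arm in the RefSeq table, such as Mir143, are not drawn.

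The gap inside the family was the widest of the 9 families that gave a ratio in the same way. In 9 families, the gene with the highest level among those without a shared arm was set against the sum of the genes with one. For miR-26 the ratio was 536-fold, or 9.07 ± 0.01 on the log2 scale (SD, n = 2), with Mir26b at 28538 CPM and the miR-26a genes at 53.3 CPM together. The miR-30 family was closest, where Mir30e exceeded Mir30c-1 and Mir30c-2 by 7.92 ± 0.19. At the other end, Mir15a at 1710 CPM was lower than Mir16-1 and Mir16-2 together at 1870 CPM (-0.13 ± 0.02). The median over the 9 families was 24.4-fold, and 8 of 9 had the single-locus gene higher. This median is the value of miR-103 (24.5-fold), which gave no ratio when sharing was judged by a 20-nt stretch. By that rule miR-29 gave 1.24-fold in place of 81.1-fold, so the median depends on the rule. Of 11 families listed, miR-133 and miR-196 gave no ratio. For miR-133 only Mir133b had a mature arm in the RefSeq table, so sharing by its other genes could not be judged there. By a stretch of at least 20 nt common to the hairpins, Mir133a-1, Mir133a-2 and Mir133b all counted as sharing. For miR-196 the shared-arm genes had 5 and 1 counts together, against Mir196b at 9.33 CPM. The families were chosen with earlier results known, so the rank of miR-26 among them is a description.

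**Figure D4:**
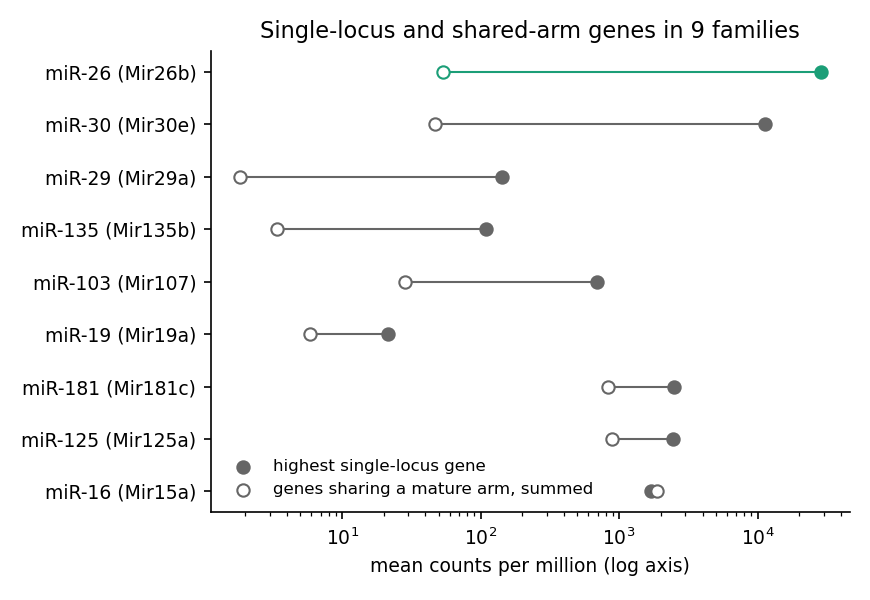
For 9 miRNA families, mean CPM (log axis) of the highest gene without a shared mature arm (filled circle, named in brackets) and of the genes with one, summed (open circle). The miR-26 family, in green, has the longest line, from 53.3 to 28538, and miR-16 is the family where the open circle lies to the right.

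Genes at the same level were found by the distance of log2 CPM over the 2 pups, among 305 detected genes. For Mir26b these were Mirlet7i (distance 0.0506), the epithelial gene Mir429 (0.0904) and Mir21a (0.211). Mirlet7i, at 28544 ± 539 CPM, did not differ from Mir26b beyond its spread (log2 ratio of Mir26b over Mirlet7i 0.00 ± 0.05). Mir429 at 29821 ± 287 CPM and Mir21a at 31266 ± 1682 CPM were higher than Mir26b by more than the spread (-0.06 ± 0.01 and -0.13 ± 0.10). A spread from 2 pups is a weak yardstick, and these genes were picked for closeness in level. Such small differences describe these libraries and were not tested. The next lower gene, Mir23a at 25370 ± 1203 CPM, was below it by 0.17 ± 0.05. For Mir26a-2 the closest were Mir204 (0.109), Mir193a (0.135) and Mir1247 (0.138), of which Mir204 and Mir193a did not differ from it beyond the spread. For Mir26a-1 they were Mir383 (0.147), Mir7-2 (0.173) and Mir218-1 (0.195). Mir7-2 and Mir218-1 also have an arm shared with another gene.

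The stomachs of the littermates differed little in Mir26b, and no difference was detected in the miR-26a genes, whose low counts leave wide intervals. The test was a two-sided exact binomial test against library sizes scaled by edgeR's TMM, with Benjamini-Hochberg adjustment over all 305 detected genes, and calls required a ratio of 1.5 or more beside an adjusted p under 0.05. It compares these libraries and takes counting error alone. None of the 3 members was called, beside 9 of 305 genes, or 2.95%. Mir26b was higher in pup 1 by a log2 ratio of 0.14 (exact 95% interval 0.12 to 0.15; adjusted p = 1.83e-108, exact binomial test), a ratio below 1.5. At this depth small ratios pass on the p alone, as they did for 52.1% of genes, and 189 of the 305 genes had a larger ratio than Mir26b in either direction. When the error was instead edgeR's common dispersion, equal to a coefficient of variation of 11.4%, the adjusted p of Mir26b was 0.999 (edgeR's exact test). That dispersion treats the pups as replicates, so it already includes the differences under test. This p therefore does not show that the pups are alike.

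For Mir26a-2 the same log2 ratio came to 0.15 (interval from -0.17 to 0.47; adjusted p = 0.493, exact binomial test), and for Mir26a-1 it was 0.00 (-0.64 to 0.64; adjusted p = 1.00). At these counts a difference inside those intervals was not detectable. Scaled by total counts, where the median gene stood at -0.13 against -0.02 after TMM, the log2 ratio of Mir26b was 0.03 and that of Mir26a-1 was -0.11. The ratio between members did not differ detectably between pups: Mir26b over Mir26a-1 by 0.14 on the log2 scale, Mir26b over Mir26a-2 by -0.01 and Mir26a-2 over Mir26a-1 by 0.15 (adjusted p = 0.956 for each of the 3 pairs, two-sided Fisher's exact test).

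**Figure D5:**
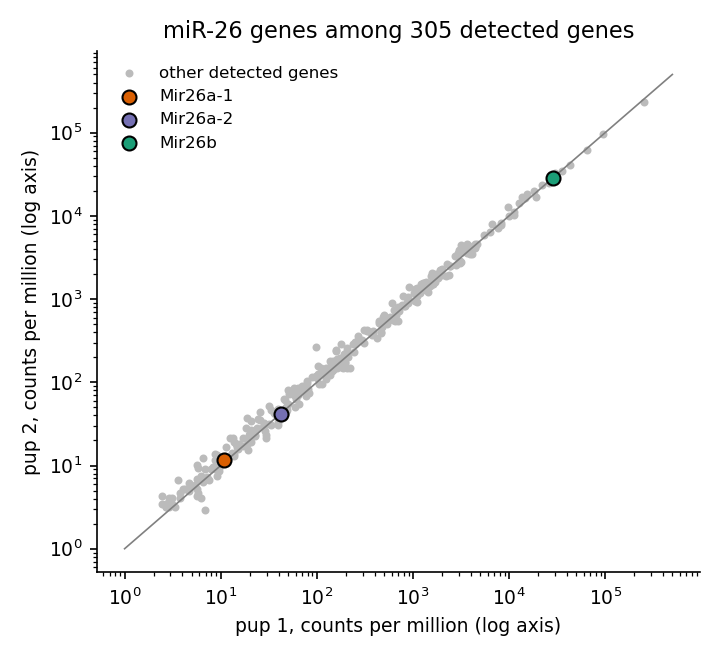
CPM in pup 1 (horizontal) and pup 2 (vertical), both on log axes, for 305 detected genes in grey and the miR-26 genes in colour, with the line of equality. The miR-26 genes lie at the line, at 28865 and 28210 for Mir26b, 42.8 and 41.4 for Mir26a-2, and 10.8 and 11.6 for Mir26a-1.

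The miR-103 and miR-107 genes in the Pank genes, which make coenzyme A, and the miR-218 genes in the axon guidance genes Slit2 and Slit3 are also families inside related hosts. The miR-26 genes together stood at 28591 ± 463 CPM, against 720 ± 78.2 CPM for Mir103-1, Mir103-2 and Mir107 and 38.5 ± 2.11 CPM for Mir218-1 and Mir218-2. In assigned reads, the miR-26 sum exceeded that of the Pank set 39.8-fold, by 5.32 ± 0.18 on the log2 scale, and that of miR-218 744-fold, by 9.54 ± 0.10, both beyond the spread between pups. These folds are not ratios of mature miRNAs. Mir103-1, Mir103-2 and both miR-218 genes share an arm, and reads that mapped to several places are in no sum. The miR-26 sum is almost all Mir26b, which has no shared arm. In the Pank set the gene without a shared arm was again the highest, Mir107 in Pank1 at 691 ± 74.0 CPM, while Mir103-2 in Pank2 stood at 26.1 ± 3.27 CPM and Mir103-1 in Pank3 at 2.23 ± 0.938 CPM, below the detection minimum in pup 1. Mir26b exceeded Mir107 by 5.37 ± 0.18. Both miR-218 genes have a shared arm, with Mir218-2 at 28.3 ± 1.35 and Mir218-1 at 10.2 ± 0.761 CPM, in the range of the miR-26a genes.

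As a set, other miRNA genes known to hold back passage from G1 to S phase were abundant beside Mir26b, but single genes ranged widely. The detected ones had a median of 806 CPM, against 166 CPM over all detected genes, and the lowest was Mir34b at 8.92 ± 0.893 CPM. Most of their counts came from Mirlet7g and Mirlet7i. Mir16-1, Mir16-2, Mirlet7a-1, Mirlet7c-1, Mirlet7c-2 and Mirlet7f-2 have an arm shared with another gene. Reads that mapped to several places are not in their counts, so these levels are not those of the mature miRNAs. Of 28 symbols listed (the let-7, miR-15, miR-16, miR-34 and miR-449 genes, Mir98, Mir195a, Mir195, Mir497, Mir497a, Mir322 and Mir503), 23 were analysed and 21 detected, and together they held 11.0% ± 0.0775 of the counts. None of the 21 was called between pups in either direction, beside 2.95% of all genes tested. On the adjusted p alone (exact binomial test), 7 were higher in pup 1 and 8 in pup 2, beside 52.1% of all genes in either direction. Their median log2 ratio was -0.07, beside -0.02 over all 305 genes. By mean level 2 of them were above Mir26b, Mirlet7g at 42007 ± 2018 CPM and Mirlet7i, the latter within the spread. The list includes Mir322, which is induced in quiescent cells, at 10751 ± 675 CPM, and Mir15a at 1710 ± 241 CPM.

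What the shared seed could bind was described from sequence alone, since no mRNA was measured. The 7-base match to the seed, TACTTGA, was searched on the sense strand in the longest annotated 3′ UTR of each protein-coding gene (GENCODE M21). It occurred in 2032 of 21020 such UTRs, or 9.67%, and longer UTRs hold it more often. Of the hosts, Ctdsp2 held 1 match in 3489 nt, at base 1080 after the stop codon, and 22.9% of UTRs within 10% of that length hold one. Ctdsp1 and Ctdspl held none in 1701 and 3349 nt. The match in Ctdsp2, in capitals, is shown because it lies in a host mRNA of the family:

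Ctdsp2: agtgttgctctTACTTGAtttgccaa

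Of 16 other mRNAs commonly named in connection with miR-26, 13 held at least 1 match. Ezh2 held 1 in 402 nt, where 3.08% of UTRs of like length do. Ccne1, the G1/S cyclin, held 1 in 531 nt against 2.94%, and Rb1 held 1 in 1709 nt against 11.5%. Gsk3b held 3 in 5515 nt against 34.4%. Smad1, Lin28b and Tut4 held none in the UTRs searched. The mRNAs were picked for reported targeting, so their count is no independent evidence, and a match is not a measured binding site.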

How the data were processed

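For each library the authors deposited raw counts of reads per gene, both without regard to strand and by strand. Per the accompanying description files the assembly is mm10 and the annotation M4; how reads were aligned, counted and trimmed is not stated in the sources used here. The strand column with the larger total, 97.7% and 97.8% of gene counts, was taken as the own strand. Rows that name no gene stayed out of totals: 8.70% and 8.94% of reads were unmapped, 26.0% and 25.7% mapped to several places, 1.78% and 1.70% lay outside the annotated genes and 0 were ambiguous. Symbols, hosts and transcripts came from GENCODE M21 (1894 of 1973 identifiers matched), arms and hairpins from RefSeq (GRCm38.p6; 916 symbols matched with an arm).

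TMM factors and the common dispersion of an intercept-only model came from edgeR 4.0.16 in R 4.3.3, alternative size factors from DESeq2 1.42.0, folds from RNAfold 2.7.2. Figures were drawn with matplotlib 3.10.9, and the remaining work ran in Python 3.11.15 with scipy 1.17.1, pandas 2.3.3 and numpy 2.4.6. Intervals are Clopper-Pearson at 95%. The genes named are the members, 2 comparison sets, the 3 genes closest in level to each member and list members called between pups. Chosen with their values in view, and not by that rule, are the marker genes, Mir23a, Mir30e, Mir30c-1, Mir30c-2, Mir16-1, Mir16-2, Mir15a, Mir322, Mirlet7g, Mir546, the list members and the hosts' highest genes. Alternatives changed the strand column, denominator, scaling, detection minimum, error model and sharing rule, or left out a pup. The members and lists were chosen with earlier results of these data known.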

Additional observations from a re-analysis of the deposited data

Results flagged for a closer look

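Reads that mapped to several places made up 26.0% of the reads in the table of pup 1 and 25.7% in that of pup 2. They lie outside the gene counts, with no control sample or expected share to set them against. In the libraries they numbered 1873722 and 1425289, and the tables assign none of them to a gene. The 22 bases of miR-26a-5p lie in both Mir26a-1 and Mir26a-2, and how many of these reads come from it was not tested.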

How the results depend on the processing

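Over 74 alternatives, 59 kept their direction and side of the threshold or stayed within the spread, 13 moved and 2 changed sign. With all reads in the table as the denominator, the mean CPM was 6.94 for Mir26a-1, 26.2 for Mir26a-2, 17740 for Mir26b and 17773 for the family. Without Mir143 in the total they were 14.7, 55.5, 37651 and 37722 CPM. Counted without regard to strand, Mir26b stood at 27908 and the family at 27960 CPM. With TMM library sizes the means stayed within their SD, but the SD between pups became 0.0192, 3.12, 1905 and 1908 CPM in place of 0.583, 0.990, 463 and 463, so the spread of a level depends on the scaling. The moved means follow from the denominators. Leaving out a pup cannot move a mean over 2 pups beyond its SD, so those entries among the 59 were settled in advance. The members had no opposite-strand counts, so counting without regard to strand could not change the ratios between them. Only a small constant added to every count could have moved these ratios beyond their SD, and they then moved by less than that. The number of genes called between pups was 16 scaled by total counts and 1 with edgeR's common dispersion (16 at an unadjusted p under 0.05), against 9, and no member was called in any of them. By direction, 2 were higher in pup 1 and 7 in pup 2, against 1 and 15 with total counts. The pup ratio of Mir26a-1, 0.00, became 0.02 with DESeq2 size factors and 0.02 with genes of at least 1 count tested, at an adjusted p of 1.00 in both. For the miR-29 family, sharing judged by a 20-nt stretch of the hairpin gave 0.31 in place of 6.34 on the log2 scale, as Mir29c then counts as sharing. By that rule the miR-103 and miR-133 families have no gene without sharing, so they gave no value. The comparison with the miR-218 set was also limited to genes without a shared mature arm, and there it gave no value, as both miR-218 genes have one. Leaving out a pup leaves 1 library and no test between pups. The counts of the miR-26a genes limit their pup ratios to the intervals given.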

Other observations

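A further miRNA gene, Mir546, is annotated in Ctdsp2, 2827 nt downstream of Mir26a-2 on the same strand. It had 0 counts in both pups, while Mir26a-2 had 191 and 143. Among 854 miRNA genes inside a protein-coding gene on the same strand, 136 were detected, with a median of 134 CPM. In this group 4 genes were above Mir26b, in order Mirlet7g in Wdr82, Mir126a in Egfl7, Mir21a in Vmp1 and Mir429 in Ttll10, while 87 of the detected ones were above Mir26a-2 and 108 above Mir26a-1.

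Of 8 other miRNA genes in introns of related, muscle or neural hosts, 6 were detected and together the 8 held 0.0301% ± 0.000982 of the counts. None of the 6 was called between pups, beside 2.95% of all genes tested, a share at which 6 genes can give no call. Mir208b in the slow myosin gene Myh7 stood at 88.2 ± 13.6 CPM, Mir33 in the cholesterol regulator Srebf2 at 82.0 ± 1.55 CPM and Mir204 in Trpm3 at 43.8 ± 3.37 CPM. Mir128-1 in R3hdm1 (59.7 ± 7.10 CPM) and Mir128-2 in Arpp21 (16.4 ± 2.60 CPM) have an identical arm, as the miR-26a genes do.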
